A study of Mus musculus with 4 samples.

Results

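Protein phosphatase 2A (PP2A), the serine/threonine phosphatase that holds many kinase pathways in check, was followed through 10 of its subunit genes in neural stem/progenitor cells (NSPCs) exposed to the PARP inhibitor PJ34. The genes were Ppp2ca, Ppp2cb, Ppp2r1a, Ppp2r1b, Ppp2r2a, Ppp2r2b, Ppp2r2c, Ppp2r2d, Ppp2r5a and Ppp2r5c, taken as every non-control probe that the array files give 1 of these gene names. They had 15 probes of the 55681 on the array, and 14 of the 15 were kept after dim probes were set aside. All 10 genes were among the 20227 genes tested, of 36499 gene names on the array. The set was chosen because Ppp2r2c stood out in these same arrays, so the values of the members in every comparison below are a description and carry no test.

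NSPCs are described by the study as taken from Slc:ICR mouse embryos at embryonic day 13.5, and were grown in neurosphere medium with EGF and basic FGF. Wild-type NSPCs and Trp53-/- NSPCs, which lack the tumour suppressor p53 and were bred from Trp53 heterozygous mice, were each hybridized on 2 arrays. The strain of the Trp53 mice was not given in the sources used here, so strain may differ with genotype. Every array carried 2 RNAs, that of cells treated with 20 μM PJ34 in the Cy5 channel and that of untreated cells of the same genotype in the Cy3 channel, and the RNA was prepared independently for each replicate. The length of the exposure for the array RNA was not given in the sources used here. The dyes were never swapped, so a preference of a probe for 1 dye and the effect of PJ34 cannot be told apart within a genotype, whereas it cancels when the genotypes are compared.

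PP2A works as a trimer. A catalytic subunit (encoded by Ppp2ca or Ppp2cb) sits on a scaffold subunit (Ppp2r1a or Ppp2r1b), and 1 of many regulatory subunits directs the complex to its substrates. The regulatory genes described here belong to the B55 family (Ppp2r2a, Ppp2r2b, Ppp2r2c and Ppp2r2d) and the B56 family (Ppp2r5a and Ppp2r5c). Ppp2r2c encodes the gamma member of the B55 family, a form known mainly from brain, as is the beta form encoded by Ppp2r2b. The alpha and delta forms (Ppp2r2a and Ppp2r2d) are found in most tissues and are known for their part in the exit from mitosis. The B56 subunits are known for their part in chromosome attachment at mitosis and in restraining growth signalling.

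Sequence upstream of the start is shown for Ppp2r2c, whose ratio stood apart, and for Ppp2r2d, the family member whose wild-type ratio was the lowest of the 10. Both stretches are the 250 bases before a transcript start in RefSeq (mouse build GRCm38.p6), written 5′ to 3′ on the strand of the gene. The Ppp2r2c stretch is chr5:36868260-36868509 on the plus strand. The Ppp2r2d stretch is chr7:138846109-138846358 on the plus strand. Of 6 motifs searched on both strands, capitals mark the matches found, which in the first stretch are to the GC box (GGGCGG) and in the second to the cyclic AMP response element (TGACGTCA) and to the p53 half-site.
Ppp2r2c: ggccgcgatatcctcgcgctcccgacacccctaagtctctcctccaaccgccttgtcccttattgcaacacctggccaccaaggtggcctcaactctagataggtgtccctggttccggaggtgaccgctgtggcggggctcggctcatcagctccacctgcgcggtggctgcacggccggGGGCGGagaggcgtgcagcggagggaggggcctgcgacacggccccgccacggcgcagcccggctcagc
Ppp2r2d: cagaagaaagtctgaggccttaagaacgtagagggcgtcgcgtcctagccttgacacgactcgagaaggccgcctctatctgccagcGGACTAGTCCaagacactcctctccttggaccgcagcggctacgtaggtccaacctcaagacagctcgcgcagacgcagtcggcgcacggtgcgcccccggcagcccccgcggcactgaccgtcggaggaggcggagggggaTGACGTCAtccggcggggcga
The start behind the Ppp2r2c stretch lies 1664 bases after the first annotated base of the gene, so RefSeq also holds an earlier start whose upstream sequence is not shown.

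The Ppp2r2c stretch had a G and C content of 69.6%, against a median of 52.4% over 32851 such stretches of all genes in the table. It held 1 match to the GC box, a sequence bound by the general factor Sp1, which 32.7% of all stretches held. The p53 half-site, which 7.13% of all stretches held, was not among its letters. The other 4 motifs had no match in it either. Of all stretches, 33.8% held the CAAT box (written CCAAT), 12.4% held the TATA box, searched as TATAAA, 6.02% held the E-box in its form CACGTG, and 1.55% held the cyclic AMP response element. The Ppp2r2d stretch held 1 match to the cyclic AMP response element and 1 to the p53 half-site, which do not overlap each other, and none to the other 4 motifs. The table held a stretch for 7 of the 10 genes, and among the others Ppp2ca also held the cyclic AMP response element. These are matches of letters in short windows and say nothing of whether a factor was bound.

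Per array, the scanner software marked 26075 to 27154 probes as well above background in the PJ34 channel and 21503 to 24536 in the control channel, and no spot was saturated. Each of the 10 probes that stand for the members was so marked in either channel of every array. Across genes, which are not independent replicates, the log2 ratios of replicates 1 and 2 correlated at 0.70 in wild-type and 0.64 in Trp53-/- NSPCs. The control level of Trp53 was 8.28 and 8.51 on a log2 scale in wild-type and 7.56 and 7.82 in Trp53-/- NSPCs. This probe remained above background in the knockout, and whether it lies within the deleted part was not given in the sources used here. The p53 target Cdkn1a had control levels of 11.28 and 12.05 in wild-type against 8.91 and 9.02 in Trp53-/- cells. Neural progenitor markers were well above background in the control channel of all 4 arrays for 7 of 7 genes, oligodendrocyte lineage markers for 7 of 7, neuron markers for 4 of 6 (not Neurod1 or Stmn2), astrocyte markers for 4 of 5 (not Gfap), microglia markers for 1 of 4 and endothelium markers for 0 of 3. In bulk RNA of this kind, fewer cells of a type and less RNA per cell cannot be told apart.

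Trp53-/- replicate 2 stood apart. Its PJ34 channel exceeded its control channel by a log2 ratio of 4.22 for Eif2s3y and 3.12 for Ddx3y, both on the Y chromosome, and the ratio of Xist was -1.39. Elsewhere Eif2s3y ran from -0.20 to 0.84 and Ddx3y from -0.20 to 0.18. The cells in the channels of that array thus differed in sex-linked transcripts as well as in treatment. The Trp53-/- ratios of the members, on the probes that stand for them, are given below for each array, so that replicate 1 can be read alone. Trp53-/- means, genotype differences and q values include replicate 2, and some other genes are given by the mean only.

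Ppp2r2c had a higher signal with PJ34 than without it on every array, by very different amounts. The gene had 1 probe, with 1 spot on each array, so no other probe or spot could be set beside these values. In wild-type NSPCs the log2 ratio of PJ34 over control was 1.97 on replicate 1 and 1.73 on replicate 2, a mean of 1.85 ± 0.17 (SD, n = 2) or 3.62-fold. In Trp53-/- NSPCs it was 0.81 and 0.17, a mean of 0.49 ± 0.45 (SD, n = 2) or 1.40-fold. The groups did not overlap, and the lower wild-type array was above the higher Trp53-/- array. Without Trp53-/- replicate 2, the knockout value was that of replicate 1 alone, 0.81. The wild-type mean exceeded the Trp53-/- mean by 1.37 on the log2 scale.

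The brightness of the spots shows where that gap lay. In the PJ34 channel the mean spot intensity of Ppp2r2c was 613 and 650 in wild-type and 370 and 286 in Trp53-/- NSPCs, over local backgrounds between 50 and 60. In the control channel it was 90.0 and 77.4 in wild-type and 99.4 and 138 in Trp53-/- NSPCs, over local backgrounds between 20 and 43. The control spots were thus dim, and the size of the ratio moved with the treatment of the background (the scanner software's own folds were 7.33 and 5.80 in wild-type and 2.21 and 1.14 in Trp53-/- NSPCs). After normalization between arrays, the log2 level in untreated cells was 7.03 and 7.47 in wild-type and 7.26 and 7.59 in Trp53-/- NSPCs, and these groups overlapped. With PJ34 the level was 9.01 and 9.21 in wild-type against 8.06 and 7.76 in Trp53-/- NSPCs. The gene was chosen for this contrast, so these levels are a description.

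**Figure D1:**
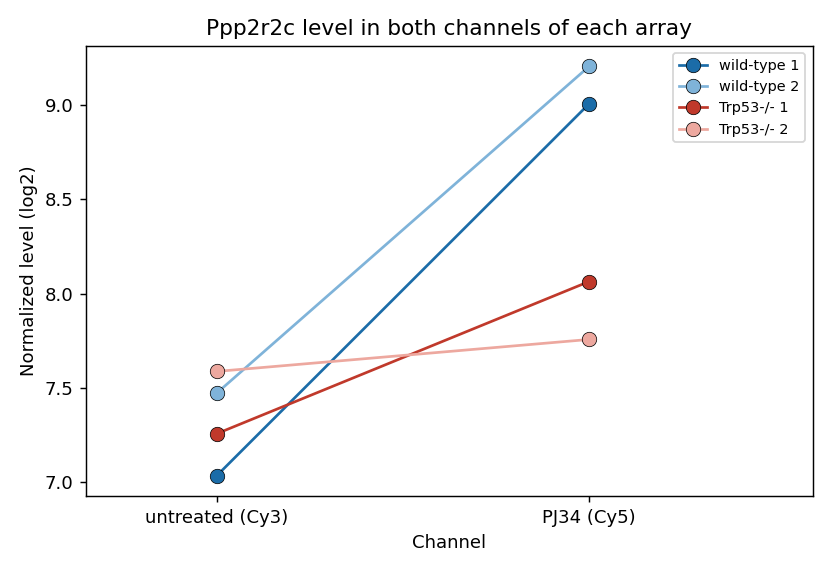
Normalized log2 level of Ppp2r2c in the control (Cy3) and PJ34 (Cy5) channel of each array, with a line joining the channels of 1 array. The control levels of both genotypes lie between 7.03 and 7.59, and with PJ34 the wild-type arrays reach 9.01 and 9.21 against 8.06 and 7.76 in Trp53-/- NSPCs.

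A gene was called in a comparison when limma's p and Storey's q, taken over all genes tested, were each below 0.05 and the change exceeded 2-fold. Ppp2r2c met this call in wild-type NSPCs, as the only member of 10, where 0.287% of all genes were called higher and 0.213% lower. It did not meet it in Trp53-/- NSPCs, where 0.089% of genes were called higher and 0.272% lower, and no other member did. In the difference between genotypes Ppp2r2c was again the only member called, with 0.44% of genes called higher in wild-type and 0.0396% lower. That call was lost with the scanner software's ratios and with a smaller background offset of 16, although the scanner's ratios put the difference at 2.04. The gene was chosen for this contrast, so nothing is read from these counts. On each wild-type array 6 genes had a higher ratio than Ppp2r2c. On Trp53-/- replicate 1, 51 genes did, and on replicate 2, 5635 did.

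The mean log2 ratio of several marker lists was also higher on both wild-type arrays than on both Trp53-/- arrays. It was 0.19 and 0.10 against 0.04 and 0.01 for the 6 neuron markers, and -0.15 and -0.19 against -0.52 and -0.30 for the 7 oligodendrocyte lineage markers. The 1 microglia marker tested had -0.05 and 0.11 against -0.16 and -0.11, and the 1 endothelium marker tested 0.03 and 0.06 against -0.17 and -0.07. That endothelium marker, and Neurod1 and Stmn2 among the neuron markers, were not well above background in the control channel of any array. Of single genes, 21.3% had both Trp53-/- ratios below both wild-type ratios. The 5 astrocyte markers, at -0.09 and -0.06 against -0.17 and 0.36, set the knockout replicates apart, and the 7 progenitor markers, at 0.04 and 0.01 against -0.02 and 0.09, overlapped between genotypes. The part of these cell types in the Ppp2r2c values was not tested.

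The other members of the B55 family had means within 0.26 of 0 on the log2 scale. Ppp2r2d had ratios of -0.23 and -0.27 in wild-type and 0.00 and -0.15 in Trp53-/- NSPCs. Its wild-type mean of -0.25 ± 0.03 (SD, n = 2) passed the q limit without reaching 2-fold, and both Trp53-/- arrays lay above both wild-type arrays. Ppp2r2b, the other brain form, had ratios of -0.20 and 0.03 in wild-type and -0.29 and -0.23 in Trp53-/- NSPCs, and its Trp53-/- mean of -0.26 ± 0.04 (SD, n = 2) passed the q limit. A second Ppp2r2b probe gave -0.05 and 0.15 in wild-type and -0.22 and -0.39 in Trp53-/- NSPCs, so both probes were below 0 on both knockout arrays. Ppp2r2a had ratios of 0.00 and -0.10 in wild-type and 0.04 and 0.01 in Trp53-/- NSPCs.

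The catalytic and scaffold genes stayed near 0. Ppp2cb, which encodes the beta catalytic subunit, had the highest mean of the 9 members other than Ppp2r2c, with 0.20 and 0.25 in wild-type and 0.24 and 0.06 in Trp53-/- NSPCs. Ppp2ca, the alpha catalytic gene, had 0.12 and -0.01 in wild-type and -0.04 and 0.05 in Trp53-/- NSPCs. Its second probe read higher in Trp53-/- NSPCs, 0.38 and 0.19, than the main probe did. For the scaffold gene Ppp2r1a the replicates lay on either side of 0 in both genotypes, 0.17 and -0.26 in wild-type and -0.18 and 0.03 in Trp53-/- NSPCs. Ppp2r1b, the other scaffold gene, had -0.08 and 0.01 in wild-type and 0.14 and -0.03 in Trp53-/- NSPCs. A second Ppp2r1b probe was not well above background in either channel of any array and was not used.

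Of the B56 genes, Ppp2r5a was below 0 on all 4 arrays, with -0.22 and -0.21 in wild-type and -0.15 and -0.29 in Trp53-/- NSPCs, and did not pass the q limit in either genotype. Ppp2r5c had 3 probes. The brightest gave 0.14 and 0.06 in wild-type and 0.14 and -0.04 in Trp53-/- NSPCs, whereas the dimmest gave -0.40 and -0.18 in wild-type and -0.18 and -0.48 in Trp53-/- NSPCs. The probes lie at different places of the transcript and did not give the gene a single direction.

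**Figure D2:**
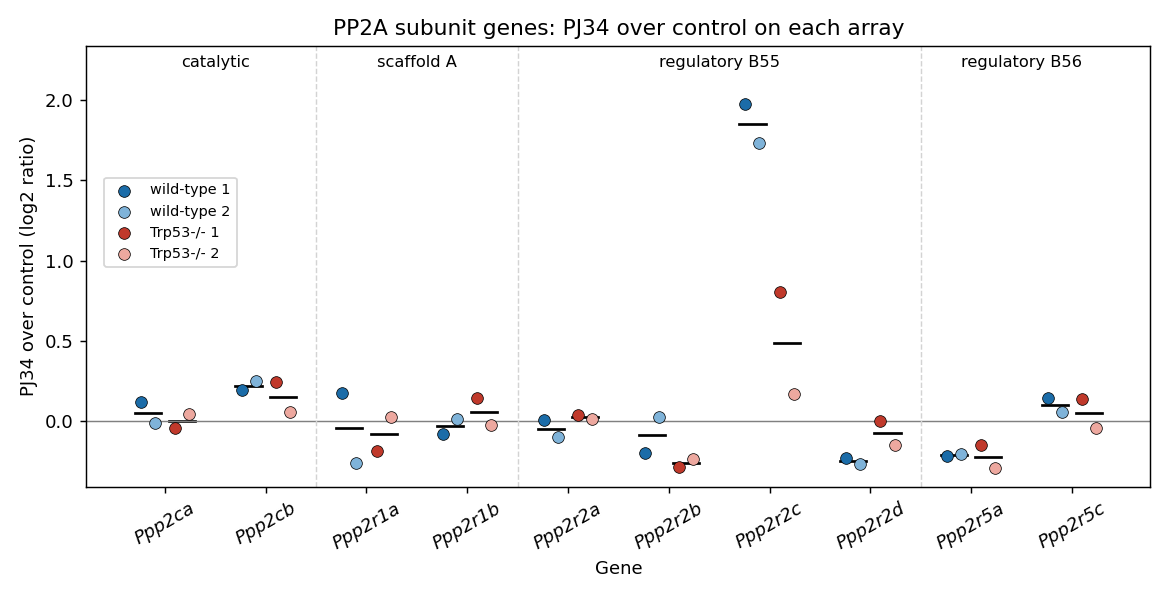
Log2 ratio of PJ34 over control for the 10 PP2A subunit genes, with 1 point per array, a black bar at the mean of each genotype (n = 2) and dashed lines between subunit classes. Ppp2r2c alone exceeds 0.5, at 1.97 and 1.73 in wild-type and 0.81 on Trp53-/- replicate 1, and the genotype means of the other 9 genes lie between -0.26 and 0.22.

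Over the 9 members other than Ppp2r2c the wild-type means ran from -0.25 (Ppp2r2d) to 0.22 (Ppp2cb) and the Trp53-/- means from -0.26 (Ppp2r2b) to 0.15 (Ppp2cb). The median of all 10 was -0.04 in wild-type, 0.01 in Trp53-/- NSPCs and 0.04 for the difference, beside 0.03, 0.03 and -0.01 for all genes tested. A mean log2 ratio beyond 0.5 in either direction was reached by 6.66% of all genes in wild-type and 5.49% in Trp53-/- NSPCs, and among the members by Ppp2r2c in wild-type. At the q limit alone, with any size of change, Ppp2r2c was higher and Ppp2r2d lower in wild-type, where 13.5% of genes were higher and 11.2% lower. In Trp53-/- NSPCs Ppp2r2c was higher and Ppp2r2b lower, where 12.7% of genes were higher and 10.4% lower. In the difference Ppp2r2c was higher in wild-type, where 1.3% of genes were higher and 0.475% lower. Ratios that did not overlap between genotypes were lower in Trp53-/- NSPCs for Ppp2r2b and Ppp2r2c (21.3% of all genes) and higher for Ppp2r2a and Ppp2r2d (23.9%). The small downward values depend on loess. With the median of each array set to 0 in its place, the median of all genes kept after the filter moved to 0.46 in wild-type and 0.63 in Trp53-/- NSPCs, and relative to it Ppp2r2d in wild-type stood at -0.03 and Ppp2r2b in Trp53-/- NSPCs at -0.13.

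Untreated cells were compared across arrays through the control channel. Each gene is read only against itself, since the brightness of different probes is not comparable. The B55 gene Ppp2r2a differed most among the members, with log2 levels of 11.60 and 11.55 in wild-type and 12.30 and 12.19 in Trp53-/- NSPCs. The groups did not overlap, and the knockout mean was 0.67 higher, or 1.59-fold, which passed the q limit but not the limit of 2-fold. At that q limit 4.17% of all genes were higher and 4.15% lower in Trp53-/- NSPCs, and no other member passed it. By the full call, 1.94% of genes were higher and 2.03% lower, and no member was.

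The untreated cells of the genotypes differed in other ways too. The mean control level of the oligodendrocyte lineage markers was 10.23 and 10.43 in wild-type and 11.18 and 11.19 in Trp53-/- NSPCs. That of the astrocyte markers was 9.17 and 9.68 against 10.34 and 10.34, and that of the neuron markers 7.995 and 7.87 against 8.33 and 8.42. The 7 progenitor markers had 12.23 and 12.07 against 12.32 and 12.24, and none of these lists overlapped between genotypes. The 1 microglia marker tested was lower in the knockout, at 10.26 and 10.62 against 9.80 and 9.46. So was the 1 endothelium marker tested, at 6.58 and 6.73 against 6.55 and 6.50. Of single genes, 27.2% had both Trp53-/- arrays above both wild-type arrays and 29% the reverse. The control levels of the Y-linked genes were 8.96 and 8.47 for Eif2s3y and 8.25 and 8.06 for Ddx3y in wild-type, and neither gene was well above background in the control channel of either Trp53-/- array. Xist was at 7.23 and 6.56 in wild-type and 7.58 and 7.51 in Trp53-/- NSPCs. Genotype and the sex-linked content of the untreated cells therefore cannot be told apart in this comparison. Nor can genotype and any difference of strain. The part of the marker lists in the members' untreated levels was not tested.

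The B56 genes also had higher means in the knockout on their brightest probes. Ppp2r5a was at 12.01 and 11.63 in wild-type and 12.33 and 12.19 in Trp53-/- NSPCs, a difference of 0.44. The brightest Ppp2r5c probe was at 10.55 and 10.29 in wild-type and 10.64 and 11.11 in Trp53-/- NSPCs, a difference of 0.45. Its other probes went the other way, with differences of -0.53 and -0.16, so the level of Ppp2r5c has no settled direction.

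For the remaining members the difference of the means was small. Ppp2cb was at 12.33 and 12.34 against 12.40 and 12.36, and Ppp2r1b at 7.56 and 7.47 against 7.65 and 7.81, both without overlap. Ppp2ca (-0.06), Ppp2r1a (0.09), Ppp2r2d (0.14), Ppp2r2c (0.17) and Ppp2r2b (0.18), as differences of the means of Trp53-/- minus wild-type in log2, overlapped between genotypes. On the brightest probe of each gene, 5 of 10 members had both Trp53-/- arrays above both wild-type arrays and 0 the reverse. Of all genes, 27.2% did the first and 29% the second. Ppp2r5c is among the 5, although its probe A_55_P2105873 showed the reverse, at 10.29 and 9.77 in wild-type against 9.59 and 9.41 in Trp53-/- NSPCs. The median difference of the 10 was 0.17, beside 0.00 for all genes. Without quantile normalization between arrays the median of all genes moved to 0.22 and the difference of Ppp2r2a to 1.07, which is past 2-fold. Relative to that median it was not past 2-fold.

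**Figure D3:**
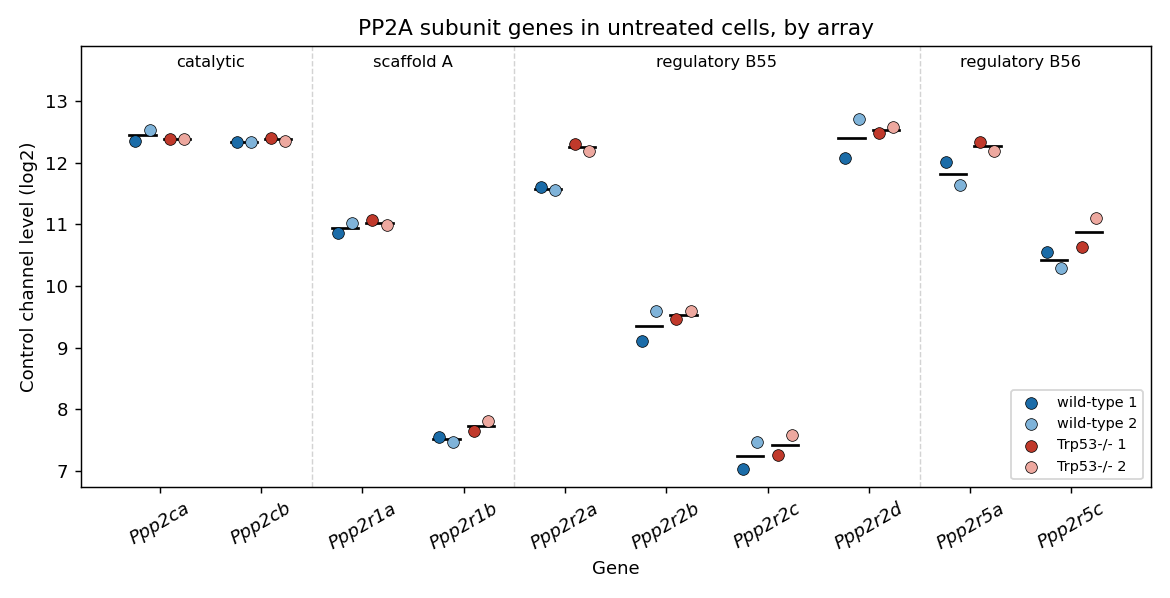
Log2 level of the 10 PP2A subunit genes in the control channel of each array, with a black bar at the mean of each genotype (n = 2). Levels compare arrays within a gene and not genes with each other. The Trp53-/- arrays are at 12.30 and 12.19 for Ppp2r2a, above 11.60 and 11.55 in wild-type, whereas the levels of Ppp2r2c overlap.

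Genes that regulate or resemble PP2A were read from a wider list of 31, of which 29 were tested. Cip2a, an inhibitor of PP2A, was too dim to test, and Pabir1 was not matched to a name in the tables used here. None of the 29 met the full call with limma in wild-type, in Trp53-/- NSPCs, in the difference or in untreated cells, where 7, 7, 2 and 3 had an unadjusted p below 0.05, beside 31.8%, 30.8%, 14.4% and 23.7% of all genes. With median centring in place of loess, 1 was called in wild-type and 9 in Trp53-/- NSPCs. In that setting 1179 and 3410 of all genes were called, and the median of all genes was 0.46 and 0.63. With loess, at the q limit with any size of change, 2 of the 29 were higher and 5 lower in wild-type. In Trp53-/- NSPCs 4 were higher and 2 lower, and 0 passed in the difference or in untreated cells. Of all genes, 13.5% were higher and 11.2% lower in wild-type and 12.7% and 10.4% in Trp53-/- NSPCs by that limit, so the 7 and 6 of 29 are close to the shares of all genes. The genes named below are given for their own values, and nothing here is particular to the list. The median of the 29 was 0.00 in both genotypes, and all 29 means lay within 0.5 of 0 in each.

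Among the inhibitors of PP2A, Set, a histone chaperone that binds the catalytic subunit, had ratios of -0.36 and -0.47 in wild-type and -0.09 and -0.02 in Trp53-/- NSPCs. In wild-type its limma q was 0.00538, and in the difference (-0.36) it was 0.162. Mastl, the Greatwall kinase that switches off PP2A with B55 at entry into mitosis, had ratios of -0.17 and -0.49 in wild-type (limma q = 0.0248) and -0.14 and -0.27 in Trp53-/- NSPCs (limma q = 0.103). Arpp19, a target of that kinase and an inhibitor of the same complex, was at 0.27 and 0.28 in Trp53-/- NSPCs (limma q = 0.0471) and at 0.22 and -0.11 in wild-type. Its relative Ensa did not pass the limit in either genotype. Anp32a, another inhibitor, had -0.23 and 0.76 in Trp53-/- NSPCs, where replicate 2 alone was high.

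Of 9 other regulatory subunits, Ppp2r3c was lower in both genotypes, at -0.46 and -0.22 in wild-type (limma q = 0.0171) and -0.41 and -0.45 in Trp53-/- NSPCs (limma q = 0.00697). Ppp2r5b, a further B56 gene, was at -0.40 and -0.21 in Trp53-/- NSPCs (limma q = 0.0342) and on either side of 0 in wild-type. Of 5 genes for the assembly and methylation of the catalytic subunit, Lcmt1, its carboxyl methyltransferase, was at 0.22 and 0.33 in Trp53-/- NSPCs (limma q = 0.0324). The methylesterase gene Ppme1 had means of 0.20 and 0.21 in the 2 genotypes without passing the limit in either.

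Of 9 catalytic subunits of related phosphatases, Ppp6c was higher in both genotypes, at 0.21 and 0.41 in wild-type (limma q = 0.0221) and 0.34 and 0.33 in Trp53-/- NSPCs (limma q = 0.0173). The calcineurin gene Ppp3ca was at 0.48 and 0.39 in wild-type (limma q = 0.00498) and 0.16 and -0.01 in Trp53-/- NSPCs, and the difference of 0.36 had a limma q of 0.172. Ppp3cb, the other main calcineurin gene, had a mean of 0.36 in Trp53-/- NSPCs (limma q = 0.011) and 0.15 in wild-type. The protein phosphatase 1 genes Ppp1cc and Ppp1ca had wild-type means of -0.42 (limma q = 0.00514) and -0.26 (limma q = 0.0415).

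In untreated cells no gene of these lists passed the q limit, and the ends of each list were as follows. The difference of Trp53-/- minus wild-type in log2 ran from -0.67 (Ppp5c) to 0.64 (Ppp3ca) among the related catalytic subunits and from -0.26 (Ppp2r3d) to 0.53 (Ppp2r3a) among the other regulatory subunits. It ran from -0.23 (Arpp19) to 0.42 (Ensa) among the inhibitors and their kinase, and from -0.23 (Ptpa, which activates PP2A) to 0.49 (Ppme1) for assembly and methylation. In the genotype difference of the PJ34 ratio the ends were Strn4 (-0.06) and Ppp2r5b (0.29) among the regulatory subunits, Anp32a (-0.55) and Ensa (0.10) among the inhibitors, Igbp1 (-0.13) and Ptpa (0.20) for assembly and methylation, and Ppp1cc (-0.28) and Ppp3ca (0.36) among the catalytic subunits.

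The small PJ34 values also moved with the scaling. Under median centring, relative to the median of all genes, the wild-type values of Set (-0.17), Ppp1cc (-0.13), Ppp2r3c (-0.18) and Mastl (-0.34) remained below it, whereas that of Ppp1ca was 0.07 above it. In the same setting without that reference, Set, Ppp1cc, Ppp2r3c, Mastl and Ppp1ca all had wild-type means above 0, between 0.12 and 0.53.

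**Figure D4:**
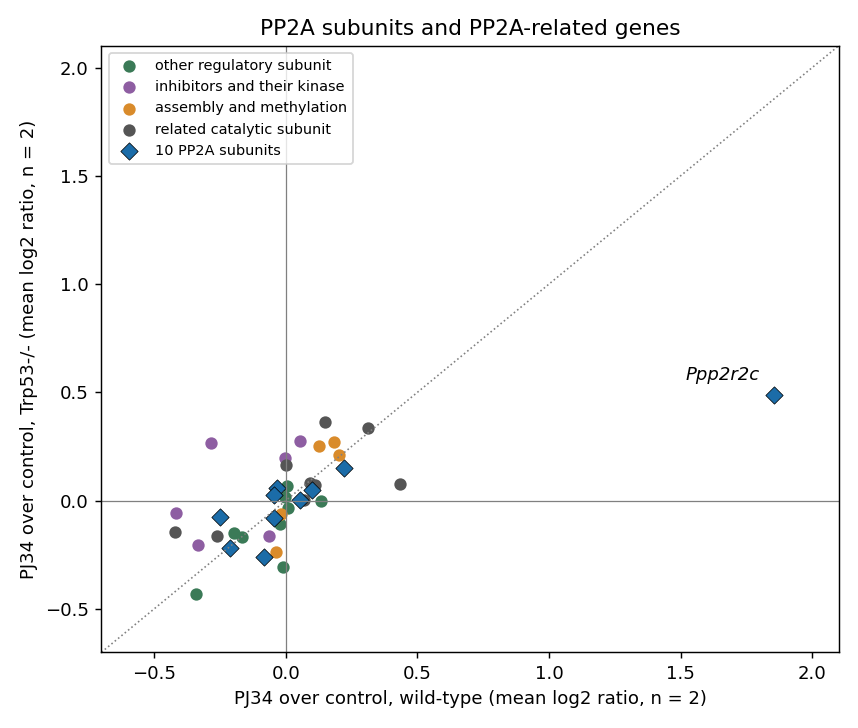
Mean log2 ratio of PJ34 over control in wild-type (x axis) and Trp53-/- NSPCs (y axis), n = 2 arrays each, for the 10 PP2A subunits (diamonds) and 29 PP2A-related genes (circles, coloured by list), with a dotted line at equal values. Ppp2r2c lies at 1.85 and 0.49, and the 29 related genes lie within 0.5 of 0 on both axes.

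The genes next to Ppp2r2c were read for the same treatment, to see whether the region moved with it. The Ppp2r2c probe lies on chromosome 5 at 37346000 to 37346059 of build mm9, and within 500 kb of it the array held 36 other probes, of which 22 were kept and 13 genes or transcripts read. None of the 13 met the full call with limma in either genotype, and 3 in wild-type and 4 in Trp53-/- NSPCs had an unadjusted p below 0.05, where 31.8% and 30.8% of all genes did. Wfs1, a gene of the endoplasmic reticulum membrane whose probe is 11424 bases away, had ratios of 0.34 and -0.03 in wild-type and -0.24 and -0.03 in Trp53-/- NSPCs. Crmp1, which encodes a cytoskeletal protein of growing axons, was lower in both genotypes, at -0.80 and -0.85 in wild-type (limma q = 0.000709) and -0.90 and -0.36 in Trp53-/- NSPCs (limma q = 0.00374). Bloc1s4, a subunit of a complex for lysosome-related organelles, was higher in both, with means of 0.30 (limma q = 0.0256) and 0.46 (limma q = 0.00513). A transcript known only by an array identifier was also higher in both genotypes, and another known only by a transcript identifier was lower in Trp53-/- NSPCs. The remaining 9, among them Mrfap1, Man2b2, D5Ertd579e, Evc and Evc2, did not pass the q limit in either genotype. No probe on the array was named for the antisense transcript annotated within Ppp2r2c. A probe of ENSMUST00000152862, on the strand opposite to Ppp2r2c, lies at -81165 bases from the Ppp2r2c probe. It was not well above background in either channel of any array and was not kept. Whether it lies within Ppp2r2c was not tested.

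**Figure D5:**
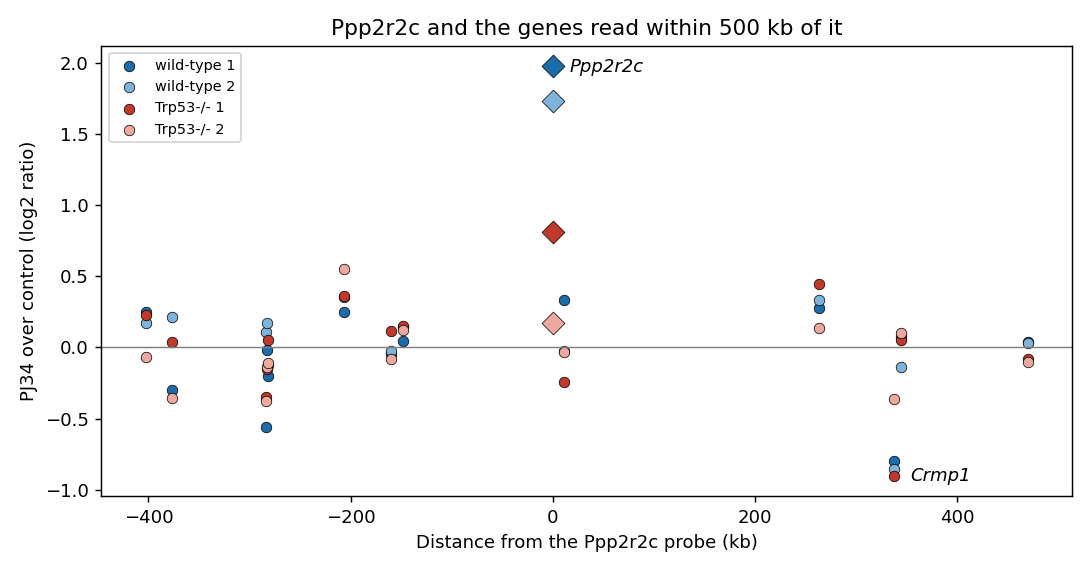
Log2 ratio of PJ34 over control on each array for Ppp2r2c (diamonds) and the 13 genes or transcripts read within 500 kb of its probe (circles), by distance from that probe in kb. Ppp2r2c is the only one above 1 on any array, and Crmp1 lies between -0.90 and -0.36.

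The genes with the pattern most like that of Ppp2r2c were found by the Euclidean distance of the 4 log2 ratios, over 20221 other genes, whose median distance was 2.72. The nearest was Pmaip1 at 0.50, which encodes the pro-apoptotic protein Noxa and is a known p53 target, with ratios of 1.89 and 1.49 in wild-type and 0.38 and 0.12 in Trp53-/- NSPCs. H1f2, a linker histone gene named Hist1h1c in the files, followed at 0.54, with 1.91 and 1.42 against 1.07 and 0.51. Cox6b2, which encodes a form of a cytochrome c oxidase subunit, was at 0.61, with 1.65 and 1.90 against 0.54 and 0.58. The other 2 of the nearest 5 were probes with no gene name, at 0.54 and 0.66. These genes were picked from 4 arrays by the very values shown, so the likeness is a description.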

How the data were processed

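Spots were scanned and extracted by the authors with Agilent Feature Extraction 10.7.3.1. The intensity values deposited by the authors (mean spot and median local background per channel) were used uncorrected. The log10 ratios deposited by the authors, already background-subtracted and dye-normalized by that software, served as an alternative after conversion to log2. A further table was not used here because its 4 columns carry only numbers. Probe positions are on mm9. Symbols came from the files or, for 26300 probes (47.2%), from RefSeq accessions.

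Background was corrected by normexp (offset 50) and ratios were normalized by loess within arrays in limma 3.58.1 (R 4.3.3). Control spots had no weight and 228 to 276 outlier spots per array were left out. Spots of a probe were averaged, and a probe was kept if, in at least 1 genotype, both arrays had either channel flagged as well above background (27035 probes, 48.6%). The brightest probe stood for a gene, except the study's listed p53 genes, for which the probe it names was used. A mean per genotype was fitted over all 4 arrays, with moderated variances (10.52 degrees of freedom). Control levels were compared after quantile normalization of mean intensities between arrays. Storey's q was taken over all genes. n counts arrays of independently prepared RNA.

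The members, the gene lists and the rules were chosen with earlier results of these data known. Genes named are the members, the highest and lowest gene of each list in each comparison, the genes within 500 kb of the Ppp2r2c probe, the 5 nearest to it by pattern and the check genes. List genes that passed the q limit alone (such as Ppp6c) were added after their values were seen. The fit was tested on simulated ratios. Alternatives were other background corrections, scalings, dim-probe filters, gene summaries and adjustments, the replicate number as a block, and leaving out each array. Same-numbered arrays correlated at -0.18 in their deviations from the genotype means over 20222 genes for the PJ34 ratios and at 0.08 for untreated levels. The main fit used no pairing. With 2 arrays per genotype these values cannot settle whether the numbers paired the arrays. A slide could not be a block because each array had its own. The number of arrays, 2 per genotype, limits the precision.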

Additional observations from a re-analysis of the deposited data

Results flagged for a closer look

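Among the members, the other PP2A-related genes, the 5 nearest genes and Cdkn1a, the PJ34 ratio differed between genotypes by more than 2-fold for 5. The Y-linked check genes were not in that count. In wild-type minus Trp53-/- log2 they also differed by more, at -1.42 (Eif2s3y) and -1.30 (Ddx3y), with Trp53-/- replicate 2 at 4.22 and 3.12. Of the 5, the same difference was 1.37 for Ppp2r2c, 1.44 for Pmaip1, 1.22 for Cox6b2 and 1.49 for the probe A_55_P2077628, which has no gene name. These 4 were chosen for their pattern on the same arrays, so their differences are a description and carry no test. The probe A_55_P2077628 was not well above background in the control channel of either Trp53-/- array, so its ratio there is a limit and its difference is not settled. The p53 target Cdkn1a, read as a check of the labels, had ratios of 1.84 and 1.23 in wild-type and -0.48 and -0.74 in Trp53-/- NSPCs, and its difference of 2.14 met limma's call. With the scanner software's ratios 0 genes met that call in the difference, beside 2161 at an unadjusted limma p below 0.05, with Cdkn1a among those lost at a difference of 2.33. With the offset of 16 the values were 1.61 for Ppp2r2c, 1.48 for Pmaip1 and 1.48 for A_55_P2077628, none of them called, and with median centring Cox6b2 was at 1.12 and not called.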

How the results depend on the processing

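In wild-type 101 genes were called, and 166 with an offset of 16, 493 with the scanner software's ratios and 1179 with median centring (1177 higher and 2 lower, against 58 and 43). In Trp53-/- NSPCs 73 were called, and 129, 366 and 3410 (3407 higher and 3 lower, against 18 and 55) in the same settings. In the difference 97 were called, and 38, 0 and 39, the 0 beside 2161 genes at an unadjusted limma p below 0.05. Ppp2r2c in wild-type moved from 1.85 to 2.04 without background correction, 2.21 with the offset of 16, 2.71 with the scanner's ratios and 2.32 with median centring, where the median of all genes was 0.46. In Trp53-/- NSPCs it moved from 0.49 to 0.98 with median centring (all genes 0.63), which also called 1 member, Ppp2cb. The genotype difference of Ppp2r2c was 2.04 with the scanner's ratios, and no member was called there (0) or with the offset of 16 (0), so this call depends on the processing. Without background correction Ppp2r2c was still called, at 1.57. The scanner's ratios also differ in dye normalization, so their part in the loss cannot be assigned to the background. Without quantile normalization 1 member, Ppp2r2a, was called in untreated cells, at 1.07, where the median of all genes was 0.22. Relative to that median Ppp2r2a was not past 2-fold. Over the settings that kept every array, 575 to 1198 of all genes were called in untreated cells. Leaving out 1 array gave 101 to 151 calls in wild-type, 76 to 165 in Trp53-/- NSPCs, 97 to 164 in the difference and 0 to 1548 among the 803 of untreated cells. The highest counts came without Trp53-/- replicate 1 (165 and 164) and without wild-type replicate 2 (1548). The 0 came without either Trp53-/- replicate, beside 2283 and 1591 genes at an unadjusted limma p below 0.05. Ppp2r2c ranged from 1.73 to 1.97 in wild-type, 0.17 to 0.81 in Trp53-/- NSPCs, 1.05 to 1.69 in the difference and -0.05 to 0.39 in untreated cells, and members called stayed at 1, 0, 1 and 0.

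With the replicate number as a block, 101, 76, 103 and 1007 genes were called in wild-type, Trp53-/- NSPCs, the difference and untreated cells, with 1, 0, 1 and 0 members. With the numbers crossed, a pairing added after the data were seen, 101, 76, 106 and 935 genes were called.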
